A study of Mus musculus with 12 samples.

Results

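Integrins are the receptors by which a blood stem cell holds on to its niche and by which leukocytes stick to vessel walls, and thrombospondin 1 (Thbs1) is a matrix glycoprotein that several of them bind. Thbs1 and the 9 integrin chains Itgam, Itgal, Itga4, Itga5, Itga6, Itgav, Itgb1, Itgb2 and Itgb3 were followed in hematopoietic stem cells (HSCs) of mice on 12 arrays, 10 of the 19935 genes that had a probe set with a single gene symbol. Thbs1 and Itgam were selected on their higher signal after estradiol (E2) in these same arrays, and the other chains were added as their partners and relatives, so the values with E2 are given for the members as a description. Of the 10 members, 9 had a mean above the filter on low values, an intensity of 182, and Itgal was below it.

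The cells were bone marrow HSCs gated as lineage-, c-kit+, Sca-1+, CD150+ and CD48-, and collected in lots of 5000 to 7000 from mice aged 2 to 3 months. Male and female mice each received either 100 µL of corn oil or the same volume carrying 2 µg of E2 under the skin, which gave 4 groups of 3 arrays, and the submitters describe the 3 as biological replicates from 3 mice. Strain, length of treatment and the antibodies behind the lineage gate were not given in the sources used here, so whether the gate removed cells with CD11b, the protein of Itgam, is not known. The RNA of each lot was amplified and hybridised to a whole-transcript mouse array, and each value is the linear intensity of a probe set.

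An integrin is a pair of 1 alpha and 1 beta chain, and neither chain reaches the cell surface in quantity without its partner. Itgam (CD11b) pairs with Itgb2 (CD18) as Mac-1, a receptor of granulocytes and macrophages, and Itgal (CD11a) pairs with the same beta chain as LFA-1, a receptor of lymphocytes and other leukocytes. Itga4, Itga5 and Itga6 pair with Itgb1 as receptors for VCAM-1 and fibronectin, for fibronectin, and for laminin, and the Itga4 pair is known for retaining HSCs in the marrow. Itgav and Itgb3 form the vitronectin receptor, and thrombospondin 1 is bound by it, by CD36 and by CD47.

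The arrays had medians between 143 and 159 and upper quartiles between 368 and 385. Xist and Y-linked genes matched the labelled sex on all 12 arrays. The spread between arrays was widest in females given E2, with a median SD of 0.16 on the log2 scale against 0.0915 to 0.109 in the other groups. Of the stem cell and gate genes, Hlf was strong in every group, with means from 2749 to 2839, and Cd48, which the gate selects against, had means from 67.7 to 92.5, below the filter. Kit, the receptor of the gate, was lower with E2 by a log2 change of -0.32 ± 0.05 (SE; limma, adjusted p = 0.0023, both sexes averaged), and Procr (-0.47), Cd34 (-0.29) and Flt3 (-1.10) fell as well. Because the RNA came from pools of sorted cells, fewer cells of a type and less RNA per cell cannot be told apart in any value here. P-values rest on 1 estimate of the spread between arrays per gene, shared by the 4 groups of 3 arrays. They do not reflect the wider spread of females given E2 separately.

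Thbs1, the secreted ligand of the set, was below the filter in oil-treated males, with intensities of 102, 88.6 and 95.8. Male E2 arrays read 1516, 752 and 1008. Female oil arrays read 181, 292 and 110, and female E2 arrays 417, 1254 and 1930. Every E2 array was above every oil array of its sex, and the lowest E2 array was female replicate 1. The group means were 95.5 ± 6.72 and 1092 ± 389 in males and 194 ± 92.1 and 1200 ± 758 in females (SD, n = 3). The fitted log2 change was 3.44 ± 0.46 (SE) in males, 10.9-fold, and 2.48 ± 0.46 in females, 5.56-fold. With the male oil mean below the filter, the size of the male change depends on a level treated here as close to background. The female call did not hold without female oil replicate 3, where the log2 change was 2.12 ± 0.49, nor in a fit of the female arrays alone.

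Itgam, the alpha chain of Mac-1, had intensities of 79.3, 97.2 and 163 in oil-treated males and 1427, 645 and 1065 in males given E2. In females the oil arrays read 200, 196.1 and 154 and the E2 arrays 589, 1168 and 1856. The oil and E2 arrays did not overlap in either sex, and the male oil group again lay lowest. The means were 113 ± 44.3 and 1046 ± 391 in males and 183 ± 25.2 and 1204 ± 634 in females (SD, n = 3). The log2 change was 3.19 ± 0.37 (SE) in males, 9.12-fold, and 2.57 ± 0.37 in females, 5.93-fold, and averaged over the sexes it was 2.88 ± 0.26, 7.35-fold. Leaving out each array in turn gave 2.93 to 3.50 in males and 2.18 to 3.01 in females. Itgam was selected on these same arrays, so the ranges are a description and no independent support. All Itgam values come from a single probe set, and 3 others that name Itgam beside another gene were not read.

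**Figure D1:**
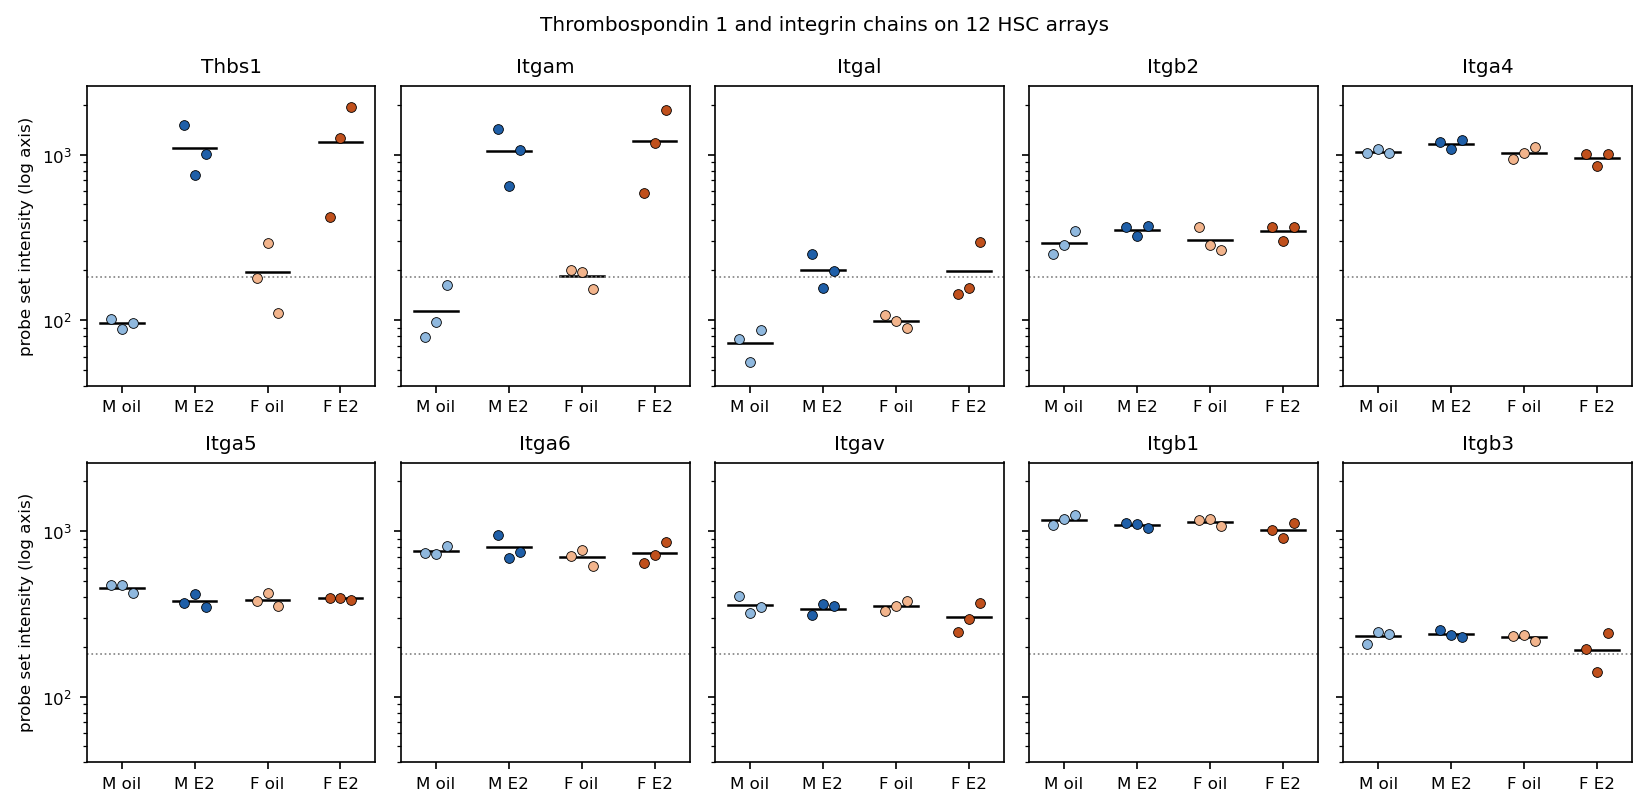
Probe set intensity (log axis) of Thbs1 and the 9 integrin chains on each array, by sex (M, F) and treatment (oil, E2), with replicates 1 to 3 from left to right in each group. Dots are arrays, lines are group means (n = 3) and the dotted line is the filter on low values at 182. Thbs1, Itgam and Itgal separate E2 from oil in both sexes, and the other 7 stay within a narrow band.

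Itgb2, the beta chain that Itgam needs at the surface, was above the filter in every group, with a somewhat higher mean under E2 in both sexes. Its intensities were 252, 284 and 346 under oil and 368, 321 and 368 under E2 in males, and 364, 284 and 266 against 367, 301 and 365 in females. Oil and E2 arrays overlapped in both sexes. The log2 change was 0.27 ± 0.14 (SE) in males and 0.18 ± 0.14 in females, and neither passed the test. Averaged over the sexes it was 0.23 ± 0.10, higher than in 93.3% of tested genes, and did not pass either (limma, adjusted p = 0.173).

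Itgal, the alpha chain of LFA-1 and another partner of Itgb2, was the third member whose E2 arrays lay above oil arrays in both sexes. That held for 2.32% of tested genes, a share that leaves out genes below the filter, such as Itgal. Males read 76.8, 56.1 and 86.7 under oil and 250.3, 156 and 199 under E2. Females read 108, 99.3 and 89.3 under oil and 143, 156.5 and 296 under E2. All oil arrays and 3 of the 6 E2 arrays lay below 182, so its changes come from the fit without the filter and their size is approximate. In that fit the log2 change was 1.45 ± 0.25 (SE) in males, 0.92 ± 0.25 in females and 1.19 ± 0.18 averaged, the male and averaged changes passed the test and the female one did not. The male call did not hold when any male array other than E2 replicate 2 was left out, with changes of 1.27 to 1.58.

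The chains of the fibronectin, laminin and VCAM-1 receptors stayed within narrow ranges. Itga4, which anchors HSCs through VCAM-1, read 1028, 1075 and 1016 in oil-treated males and 1186, 1086 and 1224 in males given E2. In females it read 936, 1030.1 and 1108 under oil and 1002, 860 and 1008 under E2. The male E2 arrays were all above the male oil arrays and the female groups overlapped, with log2 changes of 0.16 ± 0.09 (SE) and -0.10 ± 0.09, neither of which passed the test.

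Itga5, the alpha chain of the classical fibronectin receptor, read 471, 473 and 421 in oil-treated males and 370.2, 418 and 346 in males given E2, and the E2 arrays all lay below the oil arrays. In females it read 380, 421 and 354 under oil and 395, 397 and 384 under E2, and the groups overlapped. Its log2 change was -0.27 ± 0.09 (SE) in males and 0.03 ± 0.09 in females, and neither passed.

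Itga6, a laminin receptor chain used as a marker of stem cells in several tissues, had group means of 697 to 796, and its oil and E2 arrays overlapped in both sexes. Its log2 changes were 0.06 ± 0.14 (SE) in males and 0.09 ± 0.14 in females. Itgb1, the common beta chain of these receptors, had means of 1176 ± 81.4 and 1090 ± 41.4 in males and 1141 ± 56.8 and 1012 ± 103 in females (SD, n = 3). Its changes were -0.11 ± 0.09 and -0.18 ± 0.09 (SE), again with overlapping arrays and without passing the test.

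The vitronectin receptor pair did not pass either. Itgav, which also serves as a receptor that activates latent TGF-beta, had means of 358 ± 41.2 and 340 ± 26.9 in males and 354 ± 25 and 303 ± 63.1 in females (SD, n = 3), oil first. Itgb3, the beta chain of the platelet fibrinogen receptor as well, had means of 231 ± 20.1 and 239 ± 12.2 in males and 229 ± 9.26 and 192 ± 50.4 in females. In female E2 arrays Itgb3 ranged from 140.1 in replicate 2 to 241 in replicate 3. The log2 changes of Itgav were -0.07 ± 0.14 and -0.24 ± 0.14 (SE) and those of Itgb3 0.05 ± 0.15 and -0.29 ± 0.15, in males and females.

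Of the 9 members above the filter, Itgam and Thbs1 were called higher and none lower in each E2 comparison (limma, adjusted p under 0.05 over all 9967 genes tested). Over all genes, 143 were called in males, 1.43% of those tested, 355 in females, 3.56%, and 887 in the average over the sexes, 8.9%. Without the filter, over 19935 genes, the shares were 0.401% in males, 0.918% in females and 2.85% in the average. These comparisons chose Itgam and Thbs1, and nothing is read from their count. Both passed the filter through their E2 arrays, since their oil means lay at 95.5 to 194. The median log2 change of the 9 members was 0.06 in males and 0.03 in females, beside -0.00 and -0.02 over all genes tested. Arrays that do not overlap are common here, in 26.5% of all tested genes in males and 20.1% in females. E2 arrays above oil arrays in both sexes were found in 231 genes, 2.32%, Itgam and Thbs1 among them.

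**Figure D2:**
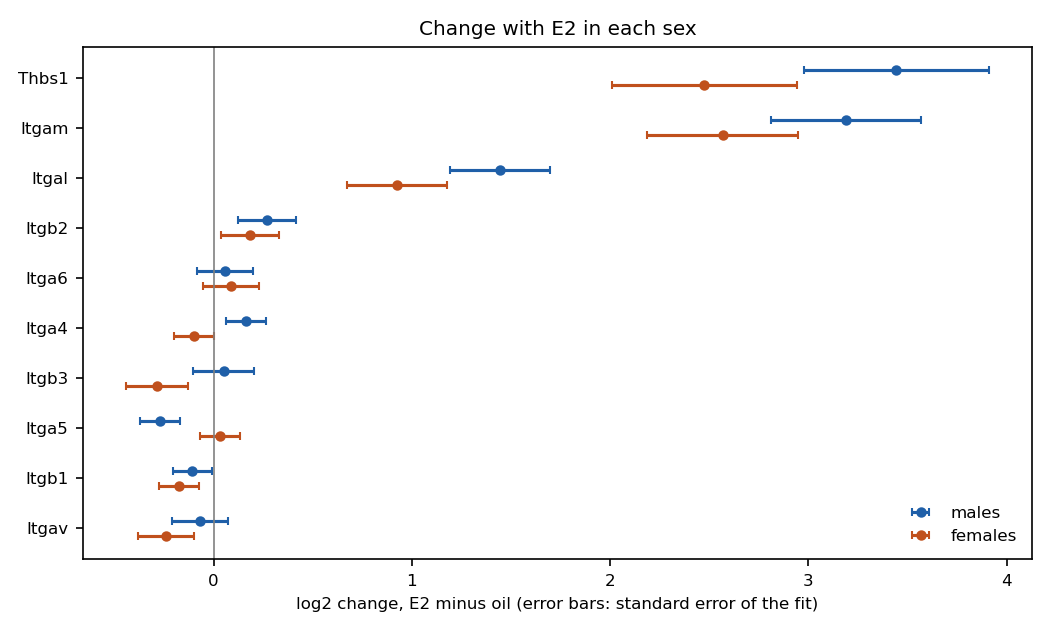
Log2 change in intensity, E2 minus oil, for the 10 members in males (blue) and females (orange), from the fit without the filter on low values; points are fitted changes and bars are standard errors. Thbs1, Itgam and Itgal stand to the right in both sexes, and the other members lie between -0.29 and 0.27.

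The responses of the sexes were then compared directly. No member differed between the sexes in its response, where 1 gene of 9967 was called (0.01%; 535 had an unadjusted p under 0.05). The female response minus the male response was -0.62 ± 0.53 (log2, SE) for Itgam (limma, adjusted p = 0.954) and -0.97 ± 0.65 for Thbs1 (adjusted p = 0.954). For Itgal without the filter it was -0.52 ± 0.36 (adjusted p = 0.965). The chain with the smallest unadjusted p was Itga5, 0.30 ± 0.13 (unadjusted p = 0.0433, adjusted p = 0.929), and Itga4 gave -0.26 ± 0.13 (adjusted p = 0.953). These standard errors leave room for a difference of either sign in Itgam and Thbs1.

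Between females and males under oil, no member was called among 4 genes that were (0.0401%; 497 had an unadjusted p under 0.05). Female and male oil arrays did not overlap in 12.9% of all tested genes. Thbs1 and Itgal were higher on every female oil array than on every male one, by a log2 difference of 0.91 ± 0.46 (SE; limma, adjusted p = 0.986) and, without the filter, 0.45 ± 0.25 (adjusted p = 1). Itgam was higher by 0.75 ± 0.37 (adjusted p = 0.986) with overlapping arrays. Under E2, 1 gene was called (0.01%; 901 had an unadjusted p under 0.05), again no member. Female and male E2 arrays did not overlap in 12.8% of all tested genes. Itga4 had lower values on every female E2 array than on every male one, by -0.29 ± 0.09 (unadjusted p = 0.00889, adjusted p = 0.452). Itgam and Thbs1 differed by 0.13 ± 0.37 (adjusted p = 0.947) and -0.06 ± 0.46 (adjusted p = 0.978).

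The other chains of the family were read from a list of 17, all measured, of which 4 were above the filter. In the average over the sexes 1 rose, 1 fell and 2 did not pass, beside 8.9% called of all tested genes. Itgb7, the beta chain that partners Itga4 and Itgae for homing to gut and epithelium, read 143, 142.4 and 184 in oil-treated males and 269.6, 212 and 284 in males given E2. In females it read 154, 176 and 148 under oil and 181, 242.5 and 296 under E2. No oil array was above an E2 array of its sex, and the averaged log2 change was 0.63 ± 0.12 (SE; limma, adjusted p = 0.00587). Itgb7 passed the filter only through its E2 groups, since its oil means of 156.5 and 159 were under 182, and without the filter its adjusted p was 0.015. Neither sex alone passed with the filter (0.70, adjusted p = 0.0642 in males and 0.56, adjusted p = 0.0872 in females). Itga2b, the platelet alpha chain that pairs with Itgb3 and is also present on early progenitors, fell by 0.44 ± 0.08 (adjusted p = 0.00435). Its means were 659 ± 76.1 and 519 ± 44.0 in males and 651 ± 20.7 and 450 ± 56.2 in females (SD, n = 3).

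Itgae (CD103), whose only partner is Itgb7 and whose ligand is E-cadherin, was below the filter and was named after its values were seen. It read 66.4, 64.4 and 54.0 in oil-treated males and 527, 199 and 392 in males given E2. In females it read 60.6, 68.9 and 57.5 under oil and 170.2, 483 and 807 under E2. Oil arrays were well under the filter, at levels treated here as close to background, and every E2 array stood above them. Without the filter Itgae rose by a log2 change of 2.58 ± 0.31 averaged over the sexes (SE; limma, adjusted p = 0.000765), with 2.47 ± 0.44 in males (adjusted p = 0.0291) and 2.68 ± 0.44 in females (adjusted p = 0.0152). The calls within a sex rest on few arrays. The male one was lost without any male array but E2 replicate 2 (2.17 to 2.53, adjusted p = 0.101 to 0.144), and the female one without any female oil array or E2 replicate 2 (2.56 to 2.76, adjusted p = 0.0512 to 0.0708). The averaged change passed under every alternative run.

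Itgax (CD11c), another alpha chain of Itgb2 whose gene lies beside Itgam on chromosome 7, stayed below the filter, with means of 67.0 ± 5.89 and 65.5 ± 4.19 in males and 80.9 ± 1.73 and 81.5 ± 14.2 in females (SD, n = 3), oil first. Itgad, the last of these chains, was measured above the filter, with means from 189 to 235, and did not pass (averaged log2 change 0.10). Among the alpha chains of Itgb2, E2 arrays thus stood above oil arrays in both sexes for Itgam and Itgal, and overlapped them in both for Itgad and Itgax. Of the genes above the filter 2.32% stood so in both sexes, and no share was taken for genes below it, such as Itgal and Itgax.

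**Figure D3:**
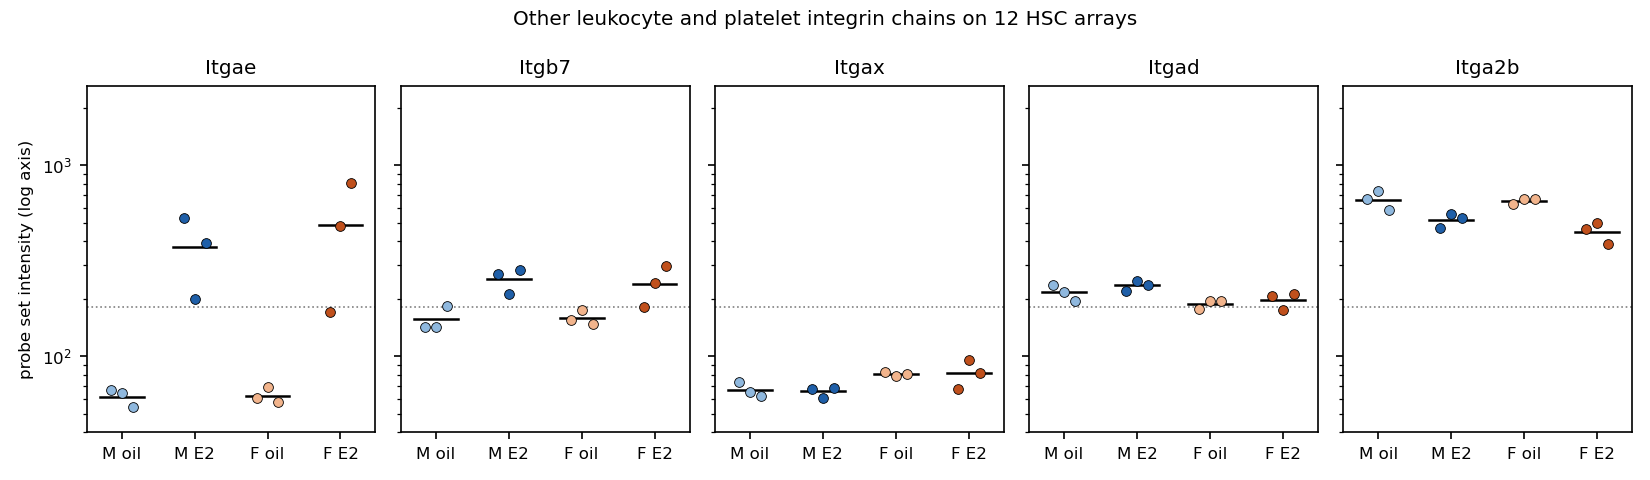
Probe set intensity (log axis) of 5 further integrin chains on each array, by sex (M, F) and treatment (oil, E2). Dots are arrays, lines are group means (n = 3) and the dotted line is the filter at 182. Itgae and Itgb7 sit higher with E2, Itga2b lower, and Itgax and Itgad stay near the oil level.

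The start-site regions of Itgam, of its neighbour Itgax and of Itgb7 are shown because the first and the last are integrin genes with higher signal under E2 and the middle one is a close relative without it. Each is the 250 bases before the start of transcription in RefSeq, build GRCm38.p6, 5′ to 3′ on the strand of the gene. Capitals mark matches to 4 motifs searched on both strands, and overlapping matches share capitals: the Sp1 box GGGCGG, the PU.1 core GAGGAA, the AP-1 site TGANTCA and the arm TGACC of the estrogen response element. Itgam lies at chr7:128062390-128062639 (plus strand), Itgax at chr7:128129300-128129549 (plus strand) and Itgb7 at chr15:102231936-102232185 (minus strand).
Itgam: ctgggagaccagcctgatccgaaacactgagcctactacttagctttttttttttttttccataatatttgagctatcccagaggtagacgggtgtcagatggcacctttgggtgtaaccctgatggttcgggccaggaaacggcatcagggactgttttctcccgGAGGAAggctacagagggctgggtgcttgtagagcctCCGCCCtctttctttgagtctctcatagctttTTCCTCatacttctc
Itgax: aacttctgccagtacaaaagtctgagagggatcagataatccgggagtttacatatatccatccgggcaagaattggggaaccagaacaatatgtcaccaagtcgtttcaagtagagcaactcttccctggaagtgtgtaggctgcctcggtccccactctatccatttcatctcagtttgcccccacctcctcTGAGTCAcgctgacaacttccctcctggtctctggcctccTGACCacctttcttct
Itgb7: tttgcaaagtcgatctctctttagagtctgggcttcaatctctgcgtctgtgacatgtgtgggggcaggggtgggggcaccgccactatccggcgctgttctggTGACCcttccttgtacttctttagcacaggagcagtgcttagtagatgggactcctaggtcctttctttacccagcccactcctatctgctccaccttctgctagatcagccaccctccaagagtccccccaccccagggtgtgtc

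The Itgam region held 2 PU.1 cores, starting 84 and 15 bases before the start, and 1 Sp1 box at 47. PU.1 is the master transcription factor of myeloid cells, and its core stands in 23.3% of 32851 mouse promoters of this length, the Sp1 box in 32.7%. Itgax held the estrogen response arm at 16 and an AP-1 site at 56, and Itgb7 held the arm at 146. The arm occurs in 35.2% of promoters and the AP-1 site in 6.75%. The full estrogen response element, of which the arm is a part, was in 0.0639% of promoters and in none of these regions. A match is a stretch of letters and not a measured site. Of the 10 members, 5 had an entry in the promoter table, and in the other 4 (Itga4, Itga5, Itgav and Itgb1) neither the estrogen response arm nor the AP-1 site was found. PU.1 cores also stood in Itga5 (at 127), Itgav (218 and 7) and Itgb1 (9). Sp1 boxes stood in Itga4 (114), Itga5 (149 and 6) and Itgb1 (151). Itga2b, which fell with E2, held PU.1 cores at 126 and 44, so these motifs were not particular to Itgam.

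Beyond the family, genes that act on integrins were read from lists. Of 45 genes of integrin activation and adaptor function, 42 were measured and 35 were above the filter. In the average over the sexes none rose, 3 fell and 32 did not pass, with a median log2 change of -0.03 beside -0.01 over all genes. Of all 9967 tested genes 887 were called in that average, 8.9%, and nothing is read from the count of 3. Cyth1, a guanine nucleotide exchange factor that binds the tail of Itgb2, fell by 0.39 ± 0.07 (SE; limma, adjusted p = 0.00587). Actn1, an actin crosslinker at adhesion sites, fell by 0.37 ± 0.07 (adjusted p = 0.00873). Tes, a focal adhesion protein, fell by 0.33 ± 0.08 (adjusted p = 0.0195), a call lost without male oil replicate 2 (adjusted p = 0.0542) or female oil replicate 3 (adjusted p = 0.0513). Talin (Tln1), which switches integrins on, had a change of 0.02 and Fermt3, the blood cell kindlin, one of -0.10, and neither passed.

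Of 35 integrin ligands other than Thbs1, 33 were measured and 11 were above the filter. In the average over the sexes 1 rose, 2 fell and 8 did not pass (median log2 change -0.02), beside 8.9% called of all tested genes. Col1a2, a chain of type I collagen, rose by 0.90 ± 0.18 (SE; limma, adjusted p = 0.00796, and 0.0197 without the filter), with oil means of 149 and 158 under the filter and E2 means of 264 and 337 above it. Of 6 stromal markers, which include it, Col1a1 did not pass (0.14, adjusted p = 0.315), Col3a1, Cxcl12, Lepr and Pdgfra were below the filter, and the summed intensity was 692 to 984 under oil and 808 to 961 under E2 in males and 710.2 to 780 and 804 to 1143 in females. Without Col1a2 the sums were 566 to 818 and 601 to 631 in males and 559 to 613 and 612 to 741 in females, overlapping in both sexes, and their part in the change of Col1a2 and of Thbs1 was not tested. Icam4, the red cell ligand of leukocyte integrins, fell by 0.54 ± 0.08 (adjusted p = 0.000947, and 0.00326 without the filter), with oil means of 230 and 260 above the filter and E2 means of 162 and 174 under it. Mfge8, which bridges dying cells to Itgav pairs, fell by 0.36 ± 0.08 (adjusted p = 0.0159), a call lost without female oil replicate 2 (adjusted p = 0.0513). Icam1 and Icam2, ligands of Itgam and Itgal pairs, had changes of 0.12 and -0.17 and did not pass, and Vcam1 and Fn1 were below the filter.

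No receptor or partner of Thbs1 above the filter rose with E2, and no relative was above it. Thbs2, Thbs3, Thbs4 and Comp were all below the filter, with group means of 66.9 to 114. In the fit without the filter none of them passed (limma, averaged log2 changes of 0.01 to 0.11, adjusted p = 0.536 to 0.974). Of 16 thrombospondin receptors and partners 6 were above the filter. In the average over the sexes none rose, 1 fell and 5 did not pass, with a median log2 change of -0.07, beside 8.9% called of all tested genes. Sirpa, a phagocyte receptor that binds CD47, fell by 0.64 ± 0.10 (SE; limma, adjusted p = 0.00123), with means of 831 under oil and 591 under E2 in males and 831 and 487 in females. Cd47 itself was strong in every group, with means of 2860 to 3190, and its change of -0.06 did not pass (adjusted p = 0.556). Cd36, Lrp1 and Mmp2, a matrix metalloproteinase that thrombospondin 1 binds, were below the filter. In the fit without the filter Cd36 (0.30, limma, adjusted p = 0.365) and Lrp1 (0.02, adjusted p = 0.933) did not pass. In that fit Mmp2 fell by 0.69 ± 0.10 (adjusted p = 0.00181), with means of 185 and 98.5 in males and 165 and 119 in females, oil first.

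Itgam and Thbs1 varied together on the E2 arrays. Over the 12 arrays their log2 values correlated at r = 0.975, and after each group's mean was removed at r = 0.799, a description over arrays in which both genes are read from the same RNA lot. Within the 6 E2 arrays the second value was 0.969 and within the 6 oil arrays 0.271, where both genes were low. This split and the sums without 1 gene given for marker lists were chosen after seeing the data. Itgam and Thbs1 were both selected on their rise with E2, so a high r over oil and E2 arrays was fixed in advance and is no support. The closest genes below were ranked by that same r over the 12 arrays. Among 9469 genes, the 5 closest to Itgam were Gbp11 (r = 0.987), Gbp4 (0.982), Fads2 (0.975), Thbs1 (0.975) and Chad (0.969). The 5 closest to Thbs1 were Ern1 (0.991), Gbp11 (0.989), Gbp4 (0.978), Rmnd5b (0.977) and Itgam (0.975). Gbp4 and Gbp11 encode guanylate binding proteins of the interferon response, Ern1 a sensor of stress in the endoplasmic reticulum and Fads2 a fatty acid desaturase.

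The order of the E2 arrays was shared among these genes. Itgam, Thbs1, Itgal and Itgae were all lowest on male E2 replicate 2 and highest on replicate 1, and in females lowest on replicate 1 and highest on replicate 3. Itga6 had the same order, and Itgb2 and Itgb7 had others. The order of Itgam in both sexes was found in 471 of 9967 genes, 4.73%. Female E2 replicate 1, the lowest array of Itgam, Thbs1, Itgal, Itgae and Itgb7 among the female E2 arrays, read 589 for Itgam and 417 for Thbs1, still above every female oil array.

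Because Itgam is a classical marker of granulocytes and macrophages, the markers of other cells were read beside it. Of 16 granulocyte genes, all measured, 10 were above the filter. In the average over the sexes none of them rose and 1, Prtn3, fell, beside 8.9% called of all tested genes. Their summed intensity ranged from 9518 to 19250 on male oil arrays, 8834 to 15350 on male E2 arrays, 10780 to 24160 on female oil arrays and 6574 to 16890 on female E2 arrays, and oil and E2 overlapped. The monocyte and macrophage list of 14 symbols named Adgre1 under 2 of them. Of its genes 12 were measured and 2 were above the filter, neither of which passed. Their sums were 2894 to 3278 and 2705 to 3175 in males and 2999 to 3426 and 2551 to 2983 in females, oil first, overlapping in males and lower with E2 in females. The female difference came with Lyz2, the brightest gene of the list, whose means were 1902 under oil and 1310 under E2 in females. Without Lyz2 the sums were 1240 to 1415 and 1180 to 1377 in males and 1223 to 1277 and 1289 to 1557 in females, where E2 arrays then lay above oil arrays. Ccr2, a chemokine receptor of monocytes that was below the filter, rose by 0.58 ± 0.14 in the fit without the filter (limma, adjusted p = 0.0449), with means of 90.8 and 130 in males and 88.6 and 147 in females, oil first. Cd68, the gene of this list above the filter beside Lyz2, had means of 428 and 396 in males and 376 and 487 in females, oil first. Its averaged log2 change of 0.12 did not pass (limma, adjusted p = 0.637). Csf1r (group means 72.2 to 94.7) and Adgre1 (40.7 to 48.9) were below the filter in every group, and both were highest in females given E2. In the fit without the filter their averaged changes did not pass (0.22, limma, adjusted p = 0.306, and 0.13, adjusted p = 0.587). The part of these genes in the values of Itgam was not tested.

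Sums of 3 further lists were lower with E2. The summed intensity of 6 measured megakaryocyte genes of 11 was 2913 to 3249 under oil and 2271 to 2611 under E2 in males, and 2916 to 3244 and 1685 to 2526 in females. In this list Pf4, Gp5 and Plek fell and Gp9 rose, and Itga2b, above, is itself a gene of that lineage. For 9 measured NK, T and B cell genes of 10, the sums were 1357 to 1520 and 997.5 to 1074 in males and 1268 to 1487 and 1034 to 1119 in females. Here 1 gene, Nkg7, a protein of cytotoxic granules, carried the difference, with a log2 change of -1.67 ± 0.19 (limma, adjusted p = 0.000182) and means of 573 and 165 in males and 495 and 174 in females. The other 8 summed to 795 to 958 and 828 to 896 in males and 824 to 901 and 814 to 1000 in females and overlapped. The 8 measured stem cell and gate genes of 10 summed to 10470 to 10850 and 9248 to 9550 in males and 10020 to 10240 and 8536 to 9246 in females. In this list Kit, Procr, Cd34 and Flt3 fell. Hlf (averaged log2 change -0.006), Mecom (0.13) and Slamf1 (-0.275) did not pass, and Cd48 was below the filter. E2 arrays lay below oil arrays in both sexes for these 3 sums, and their part in the values of Itgam, Itgal, Itgae and Thbs1 was not tested. The erythroid sums, 851 to 1390 and 864 to 1193 in males and 857 to 1754 and 1141 to 1675 in females, and the endothelial sums, 1668 to 1815 and 1620 to 1782 in males and 1726 to 1936 and 1424 to 1888 in females, overlapped between oil and E2. In the erythroid list Tfrc, the transferrin receptor, rose by 0.36 (adjusted p = 0.0491).

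**Figure D4:**
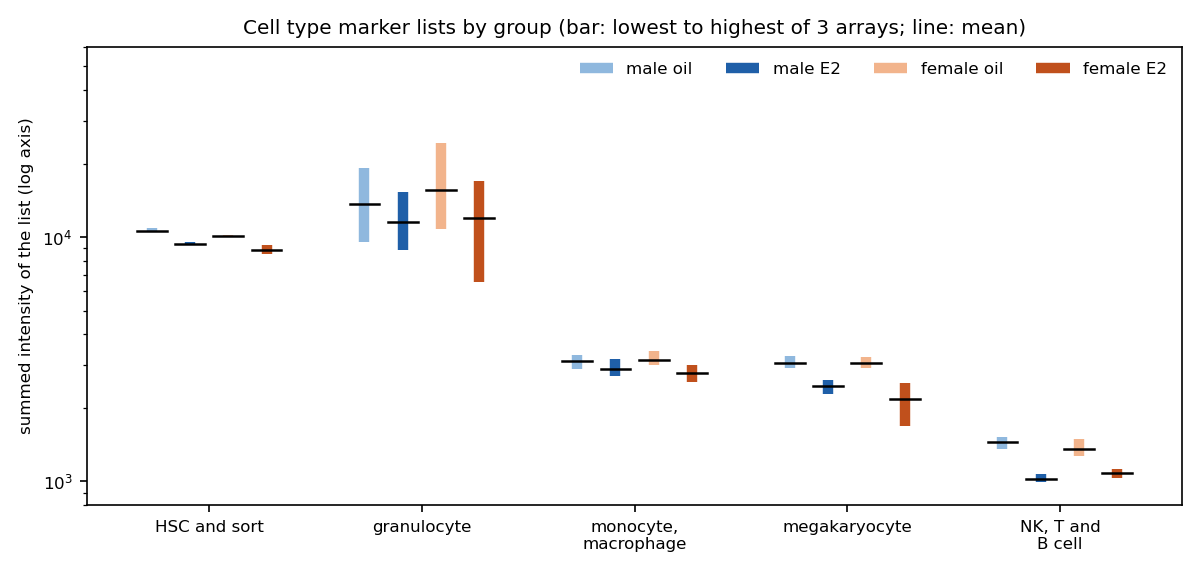
Summed intensity (log axis) of 5 cell type marker lists in the 4 groups; bars run from the lowest to the highest of 3 arrays and lines are means. The granulocyte sums overlap between oil and E2 in both sexes and the monocyte and macrophage sums in males. The stem cell, megakaryocyte and lymphoid sums are lower with E2 in both sexes, the lymphoid sum through Nkg7 alone. Not every gene of the stem cell and megakaryocyte lists fell.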

How the data were processed

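The authors deposited 1 intensity per probe set on a linear scale, per the labels from Affymetrix Mouse Gene 1.0 ST arrays after NuGEN Ovation Pico WTA V2 amplification. How probes were summarised, corrected and normalized was not given in the sources used here. Of 35474 probe sets, the 21780 with 1 gene symbol were used. Each of 19935 genes was read from its brightest probe set by mean. Each member had only 1. Another 3 probe sets that name Itgam beside another gene were left out, and their values were not read. Tests used log2(intensity + 1). The 9967 genes with a mean above that of the median gene (7.52 in log2, intensity 182) were tested. No background level comes with the values, so levels under 182 were treated as close to background; array number limits precision.

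Limma 3.58.1 in R 4.3.3 fitted 1 mean per group to all 12 arrays, with eBayes on 8 residual degrees of freedom and 5.38 from the prior. P-values were adjusted by Benjamini-Hochberg over all tested genes, calling at an adjusted p under 0.05. Changes are on the log2 scale with the offset and understate those of low genes. The script was tested on simulated data. Python 3.11.15 with pandas 2.3.3, NumPy 2.4.6 and matplotlib 3.10.9 did the rest. Promoters are RefSeq's, build GRCm38.p6.

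The members and lists were chosen with earlier results of these data known. From each pathway list the text names genes called in the averaged comparison, up to 4 by smallest p, and for Itgam and Thbs1 the 5 genes of highest Pearson r; further genes, among them Itgae, Itgax, Itgad, Tln1, Fermt3, Icam1, Icam2, Cd47, Mmp2 and the cell markers, were named after their values were seen. Replicate numbers did not pair the arrays: deviations from group means correlated at -0.263 to 0.203 between arrays of the same number. Alternatives were other scalings, offsets, filters, fits, thresholds and leaving out each array.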

Additional observations from a re-analysis of the deposited data

How the results depend on the processing

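In females, 2 members were called, and 1 in a fit of the female arrays alone; leaving out each array in turn gave 1 to 2, the lower count without female oil replicate 3. In males and in the average over the sexes, 2 to 3 members were called under every alternative, and in the sex comparisons and the difference of responses none. Itgam and Thbs1 were selected on the E2 comparisons, so nothing is read from their calls there. The female minus male response of Itgae, 0.21 without the filter, had no settled sign: it was -0.18 without male E2 replicate 2, and leaving out arrays gave -0.28 to 0.83. Over all genes the calls ranged from 80 to 409 in males without leaving an array out, 67 to 657 in females and 568 to 1459 in the average; leaving out arrays gave 62 to 327, 115 to 549 and 476 to 1147. The replicate block left 2 members called in each E2 comparison and 103, 258 and 736 genes in all; it ended the male call of Itgae (adjusted p = 0.0608 without the filter), and 0 of 12 arrays correlated best with their own number. The male call of Itgae was also lost with a trended, robust fit (adjusted p = 0.0921) and the female one with the female arrays alone (adjusted p = 0.1). Tes lost its call without the filter (adjusted p = 0.0515). Levels under 182 limit the sizes given for Itgal, Itgae and the oil groups of Itgam and Thbs1.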
